A study of Homo sapiens with 8 samples.

Results

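The replication-dependent histone genes are the 71 gene symbols of the deposited table that begin with HIST1, HIST2, HIST3 or HIST4 followed by H1, H2A, H2B, H3 or H4, out of 26372 symbols in all. They divide into 6 H1, 17 H2A, 20 H2B, 14 H3 and 14 H4 symbols. 56 belong to the HIST1 cluster, 11 to HIST2, 3 to HIST3 and 1 is HIST4H4. 3 of the 71, HIST1H2APS1, HIST2H2BA and HIST2H2BC, are annotated as pseudogenes. RNA came from BE(2)-M17, an established human neuroblastoma line that the labels call M17, in 4 libraries after interferon-γ (IFN-γ) at 10 ng/ml for 24 h and 4 untreated libraries. Both groups share the line, with no genetic change named in the labels. The 8 libraries were depleted of ribosomal RNA, made from 1 µg of total RNA and read as pairs of 150 nt. Levels are FPKM, the fragments of a gene scaled by its transcript length and by the mapped fragments of the library. No label ties the 4 libraries of a group to different cultures, so a p-value here measures only how these libraries differ among themselves, a spread that may be technical.

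The treatment label was checked on IRF1, a transcription factor gene induced by IFN-γ, which stood at 125, 123, 125 and 128 FPKM in IFN-γ libraries and 0.569, 0.596, 0.538 and 0.633 FPKM in untreated libraries. IFN-γ replicate 4 was as high in IRF1 as the other 3, but it stood apart in histone RNA, so values are given with and without it. Depth, read from the steps between low FPKM values, was about 15.7 to 22.7 M fragments in each library (M, mega). Summed noradrenergic neuroblastoma markers ran from 3207 to 3463 FPKM with IFN-γ and from 3243 to 3314 FPKM untreated. Of the 9 tested, 2 were higher, where 13.3% of all tested genes were. Summed T and NK cell markers reached at most 2.15 FPKM with IFN-γ and 2.93 FPKM untreated, macrophage markers 2.13 FPKM with IFN-γ and 1.36 FPKM untreated, and endothelial markers 0.0846 FPKM with IFN-γ and 0.134 FPKM untreated. CD3D, CD3E, CD2 and CD163 were listed at 0 in all 8 libraries. Fibroblast markers summed to 161 to 219 FPKM with IFN-γ and 156 to 167 FPKM untreated, and came from DCN and LUM, while the other 4 fibroblast markers lay under 1 FPKM in every library. LUM was higher with IFN-γ and DCN did not pass the test.

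Histone proteins package DNA. H3 with H4, and H2A with H2B, form the core around which DNA winds, and H1 binds the DNA that links cores. The genes studied here are transcribed mainly during S phase, when new DNA has to be packaged. Their messages carry no poly(A) tail in most cells and end in a stem-loop that binds the protein SLBP and is cut after it with the help of the U7 small nuclear RNA. Because these messages lack the tail, RNA depleted of ribosomal RNA can hold them where RNA selected for poly(A) mostly does not.

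The stem-loop is shown because it is the known 3′ end of these messages. Its 16 letters, as in capitals below with any base at the one position that varies there, were searched on the transcript strand in the GENCODE release 29 transcripts of all 71 members. They were present in 21 members, with C in the loop in 16 and A in 5. Of 57133 gene symbols with a transcript, 26 held them (0.0455%), 3 of which do not have a HIST symbol. They were in 5 H2A, 11 H2B and 5 H3 members and in no H1 or H4 member. In 32 members the annotated transcript holds coding sequence alone, so the window that could hold the stem-loop is not there, and 18 of the 39 members with more sequence lacked these exact letters. The annotated transcripts of the members printed below do not end at the stem-loop. They run on past it by 116 nt (HIST1H2BC) to 1917 nt (HIST3H2BB). The lines below give, from 5′ to 3′, the stem-loop in capitals with 5 flanking bases on each side for members whose values follow.
HIST2H2BF: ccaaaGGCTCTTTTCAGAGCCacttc
HIST1H2BC: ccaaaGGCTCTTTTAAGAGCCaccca
HIST1H2BF: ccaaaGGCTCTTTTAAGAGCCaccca
HIST1H3H: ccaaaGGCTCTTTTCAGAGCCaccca
HIST2H2BE: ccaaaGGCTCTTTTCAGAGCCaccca
HIST3H2A: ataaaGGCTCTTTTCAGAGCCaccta
HIST3H2BB: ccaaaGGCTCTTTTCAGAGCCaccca

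Promoters are shown because most members moved together. 63 members had a promoter in RefSeq on GRCh38.p14, given as 300 bases from 250 before to 50 after the start of the gene. TATAAA, the TATA box, was in 42 (66.7%), against 11.8% of 27242 other promoters, searching both strands. CCAAT, bound by the factor NF-Y, was in 54 (85.7%) against 35.6%. All 51 promoters of H1, H2A, H2B and H3 members held it, and 3 of 12 H4 promoters did. ATTTGCAT, the octamer bound by OCT1, was in 26 (41.3%) against 1.71%. It was in 11 of 15 H2A, 14 of 18 H2B and 1 of 12 H3 promoters, and in none of the H1 or H4 promoters. The H3 promoter that held it, of HIST1H3D, is the same window as that of HIST1H2AD. Windows are not independent, since paired H2A and H2B genes start 219 to 331 nt apart. A site between such starts can count for both partners. The core of the interferon-stimulated response element, bound by IRF proteins, was in 5 (7.94%) against 3.64%. A match is a description of letters, and nothing was measured of a factor on these windows. The following lines give 120 bases of 1 member per class and of a HIST3 member on the strand of the gene, 5′ to 3′, with the letters of the TATA box, the NF-Y site and the octamer in capitals on either strand, overlapping matches run together.
HIST1H1C, chr6:26056471-26056590, minus strand: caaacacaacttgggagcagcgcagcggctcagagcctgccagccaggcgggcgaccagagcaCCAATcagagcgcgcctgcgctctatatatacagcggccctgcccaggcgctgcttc
HIST1H2AG, chr6:27132923-27133042, plus strand: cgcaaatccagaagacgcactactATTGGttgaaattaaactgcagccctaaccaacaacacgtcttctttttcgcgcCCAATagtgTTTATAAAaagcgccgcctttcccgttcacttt
HIST1H2BF, chr6:26199396-26199515, plus strand: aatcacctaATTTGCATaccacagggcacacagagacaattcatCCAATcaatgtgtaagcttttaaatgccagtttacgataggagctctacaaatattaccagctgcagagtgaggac
HIST1H3B, chr6:26032100-26032219, minus strand: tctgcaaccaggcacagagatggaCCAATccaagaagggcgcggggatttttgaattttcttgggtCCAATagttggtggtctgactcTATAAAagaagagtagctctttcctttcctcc
HIST1H4L, chr6:27873535-27873654, minus strand: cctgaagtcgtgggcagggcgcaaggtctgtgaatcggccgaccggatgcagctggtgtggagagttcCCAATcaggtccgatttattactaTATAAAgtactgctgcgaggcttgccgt
HIST3H2BB, chr1:228457983-228458102, plus strand: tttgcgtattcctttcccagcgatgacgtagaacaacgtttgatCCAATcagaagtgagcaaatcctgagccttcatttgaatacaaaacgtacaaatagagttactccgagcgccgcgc

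Histone RNA was abundant in M17 cells. 51 of the 71 members had a mean over 100 FPKM, and the sum over all members lay between 19657 and 27686 FPKM in IFN-γ libraries and between 23748 and 24721 FPKM in untreated libraries. 3 members (HIST1H2AA, HIST1H2APS1 and HIST1H4G) were listed at 0 in all 8 libraries, and 8 more had a mean under 0.5 FPKM. The remaining 60 passed that filter and were tested, 5 of H1, 14 of H2A, 19 of H2B, 11 of H3 and 11 of H4. The tested H2B members include the pseudogenes HIST2H2BA and HIST2H2BC. HIST1H3C lay just inside the filter with a mean of 0.521 FPKM and HIST2H2AA3 just outside it with 0.451 FPKM. Members with near-identical copies, such as HIST2H2AA3, HIST2H3A, HIST2H3C and HIST2H4B, are uncertain, because the values do not show how fragments were divided between copies.

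With all 8 libraries, 3 of the 60 tested members were lower with IFN-γ and none was higher, at an adjusted p under 0.05 in limma across all 13598 tested genes. These were HIST1H4L, HIST1H4C and HIST1H2BF. Of all tested genes, 9.05% were lower and 13.3% higher, so the share of members lower (3 of 60) was not above the background. 48 of the 60 log2 changes were negative, with a median of -0.15, against -0.005 over all tested genes. Replicate 4 of the IFN-γ group set this count. Without it, 42 of 60 members were lower and none was higher, against 12.5% of all genes lower and 15.9% higher, and the median log2 change was -0.26, against -0.003 over all tested genes. Replicate 4 was set apart by its high histone RNA, so leaving it out favors lower calls. Members also moved together within libraries, so the 42 calls are not independent of each other. The 42 include all 12 members described by class below as the most abundant or the called ones. Groups did not overlap for 2 members with 4 against 4 libraries, both lower, where 12.9% of all genes were lower and 15.4% higher without overlap. With IFN-γ replicates 1 to 3 against the 4 untreated libraries this held for 43 members, all lower, where 17.2% of all genes were lower and 19.3% higher. The scaling of the libraries moved the count as well. With all 8 libraries, 40 members were lower under quantile normalization, where 18.9% of all genes were, 23 after the trend with transcript length was taken out of each library, where 10.3% were, and 36 in TPM without SNORD3A and RNAs under 200 nt, where 6.48% were. In bulk RNA, fewer cells in S phase and less histone RNA per cell cannot be told apart. Apart from scaling to the family's own median, the median of the members turned positive only in TPM with SNORD3A still in the total, which moved the median of all genes by 0.79 and that of the members to 0.66, -0.13 relative to all genes.

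The family sum showed the same split between libraries. It was 19657, 20133, 20384 and 27686 FPKM in IFN-γ replicates 1 to 4, against 24721, 24471, 24311 and 23748 FPKM in the untreated libraries. IFN-γ replicates 1 to 3 lay below every untreated library and replicate 4 above every one. Class sums were split between libraries in this way in each of the 5 classes. H1 summed to 2332, 2431, 2359 and 3228 FPKM with IFN-γ, against 2918, 2918, 2907 and 2805 FPKM untreated. H4 summed to 4299, 4285, 4559 and 6286 FPKM with IFN-γ, against 5816, 5862, 5678 and 5777 FPKM untreated. Without replicate 4, the IFN-γ mean was below the untreated mean by 17.8% for H1, 14.0% for H2A, 13.6% for H2B, 20.3% for H3 and 24.2% for H4. With it, the log2 ratios of the means were -0.16, -0.10, -0.09, -0.17 and -0.25 for H1, H2A, H2B, H3 and H4. These sums are a description and carry no test.

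**Figure D1:**
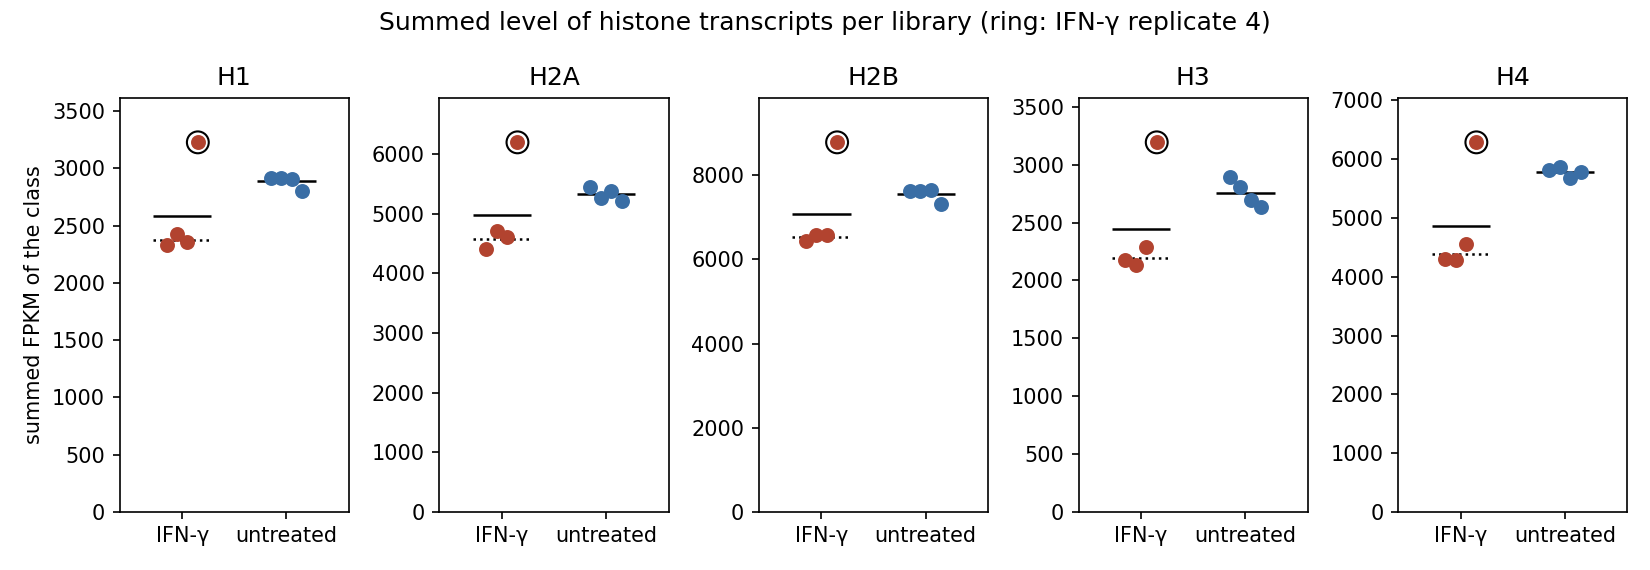
Summed FPKM (y axis, from 0) of the members of each histone class in the 4 IFN-γ libraries (red) and the 4 untreated libraries (blue). Solid bars are group means, the dotted bar is the mean of IFN-γ replicates 1 to 3, and the ring marks IFN-γ replicate 4. In every class replicates 1 to 3 lie below all untreated libraries and replicate 4 lies above them, as for H4 with 6286 FPKM against 5678 to 5862 FPKM.

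H1, the linker histone, had 5 tested members, of which none was lower with all 8 libraries and 4 were lower without IFN-γ replicate 4, with median log2 changes of -0.16 and -0.26. HIST1H1C, on chromosome 6 at 26055787 to 26056428 (GRCh38) and the most abundant H1 gene, had 891, 939, 899.8 and 1237 FPKM with IFN-γ and 1073, 1106, 1088 and 1087 FPKM untreated. Its 3 lowest libraries were IFN-γ replicates 1 to 3 and its highest was IFN-γ replicate 4. The log2 change came to -0.15 (SE 0.10, limma adjusted p = 0.354) with all libraries and -0.26 (SE 0.025) without replicate 4. HIST1H1B had 619, 651, 639 and 856 FPKM with IFN-γ and 829.6, 791, 825 and 754 FPKM untreated, with the same split between libraries. Its log2 change was -0.22 (SE 0.10, limma adjusted p = 0.148) with all libraries and -0.33 (SE 0.036) without replicate 4. HIST1H1T, a testis form, lay between 2.02 and 3.36 FPKM over the 8 libraries and did not pass the test either way.

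H2A had 14 tested members, none lower with all libraries and 9 lower without IFN-γ replicate 4, with median log2 changes of -0.13 and -0.26. HIST1H2AG, the most abundant, had 678, 777, 695 and 986 FPKM with IFN-γ and 872, 868, 907 and 852 FPKM untreated. IFN-γ replicates 1 to 3 lay below all untreated libraries and replicate 4 above them. The log2 change came to -0.17 (SE 0.11, limma adjusted p = 0.2996) with all libraries and -0.29 (SE 0.045) without replicate 4. HIST1H2AM, which overlaps HIST1H3J on the same strand so that fragments can be shared, had 456, 566, 530.3 and 708 FPKM with IFN-γ and 638, 609.8, 619.9 and 607 FPKM untreated. It had a log2 change of -0.15 (SE 0.11, limma adjusted p = 0.395), and -0.26 (SE 0.062) without replicate 4. Of the 5 tested H2A members not lower without replicate 4, HIST3H2A stood alone above 0, at a log2 change of 0.10.

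H2B pairs with H2A in the nucleosome core. It had 19 tested members, 1 lower with all libraries and 11 lower without IFN-γ replicate 4, with median log2 changes of -0.07 and -0.20, the smallest of the 5 classes both ways. HIST1H2BF, on chromosome 6 at 26199520 to 26200715, had 235, 236, 242 and 313.3 FPKM with IFN-γ and 329, 323, 342 and 313.2 FPKM untreated. IFN-γ replicates 1 to 3 lay far below the untreated libraries, and replicate 4 met the lowest of them. The log2 change came to -0.36 (SE 0.09, limma adjusted p = 0.0157), the exact two-sided permutation p was 0.0571, and without replicate 4 the log2 change was -0.46 (SE 0.030). The call was lost without untreated replicate 3, at a log2 change of -0.34, and the limma adjusted p ran from 1.5e-06 to 0.247 over all its alternative settings. HIST2H2BF, the most abundant H2B gene, had 1071, 1134, 1077 and 1351 FPKM with IFN-γ and 1197, 1193, 1211 and 1170.1 FPKM untreated. It had a log2 change of -0.05 (SE 0.09, limma adjusted p = 0.726), and -0.13 (SE 0.027) without replicate 4, with the 3 other IFN-γ libraries below all untreated ones. HIST2H2BF overlaps FCGR1A on the other strand, and the library kit does not mark strand. Fragments from a stretch that the 2 genes share cannot be told apart. HIST1H2BC had 787, 797, 796 and 1045 FPKM with IFN-γ and 935, 987, 998 and 935 FPKM untreated, a log2 change of -0.18 (SE 0.10, limma adjusted p = 0.215), and of -0.28 (SE 0.029) without replicate 4.

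H3 carries many of the modified residues of chromatin. It had 11 tested members, none lower with all libraries and 10 lower without IFN-γ replicate 4, with median log2 changes of -0.17 and -0.31. HIST1H3B, on chromosome 6 at 26031650 to 26032060, had 512, 482, 515 and 745 FPKM with IFN-γ and 728, 724, 682 and 676 FPKM untreated. Replicates 1 to 3 lay well below the untreated libraries and replicate 4 just above them. The log2 change came to -0.34 (SE 0.12, limma adjusted p = 0.0763) with all libraries and -0.48 (SE 0.036) without replicate 4. HIST1H3H had 302, 323, 345 and 470.3 FPKM with IFN-γ and 401, 389, 357 and 358 FPKM untreated, a log2 change of -0.08 (SE 0.12, limma adjusted p = 0.673), and of -0.22 (SE 0.054) without replicate 4. The tested H3 member that was not lower without replicate 4 was HIST1H3C, at under 1 FPKM in all 8 libraries.

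H4 is the partner of H3, and most human H4 genes encode the same protein. It had 11 tested members, 2 lower with all libraries and 8 lower without IFN-γ replicate 4, with median log2 changes of -0.24 and -0.36. These were the lowest of the 5 class medians on the deposited scale, but under quantile normalization H4 had -0.29 and H3 -0.34, or -0.32 and -0.40 without replicate 4. HIST1H4L, on chromosome 6 at 27873199 to 27873510, had 169, 190.1, 185 and 234 FPKM with IFN-γ and 338, 357, 337 and 332 FPKM untreated. Here all 4 IFN-γ libraries, replicate 4 included, lay below the lowest untreated library. The mean was 195 ± 27.6 FPKM with IFN-γ and 341 ± 11 FPKM untreated (SD, n = 4 each). HIST1H4L had a log2 change of -0.82 (SE 0.09, limma adjusted p = 7.0e-05), and of -0.91 (SE 0.042) without replicate 4. HIST1H4C, on chromosome 6 at 26103876 to 26104310, had 668, 692, 736 and 993 FPKM with IFN-γ and 1027, 1028, 1041 and 1081 FPKM untreated, again with no overlap. It had a log2 change of -0.45 (SE 0.12, limma adjusted p = 0.0183), and -0.58 (SE 0.035) without replicate 4. The exact two-sided permutation p was 0.0286 for both genes, the smallest that 70 arrangements can give. HIST1H4C lost its call without IFN-γ replicate 1, 2 or 3 (limma adjusted p = 0.0525, 0.0547 and 0.0512) and without untreated replicate 4 (0.0548), and its adjusted p ran from 7.2e-07 to 0.401 over all its alternative settings with limma. HIST1H4L kept its call under every alternative setting run except TPM with SNORD3A in the total (log2 change -0.01, limma adjusted p = 0.966, and -0.02, limma adjusted p = 0.961, without replicate 4). HIST1H4B, the most abundant H4 gene, had 764, 735, 826 and 1116 FPKM with IFN-γ and 965, 1029, 921 and 1024 FPKM untreated, a log2 change of -0.21 (SE 0.12, limma adjusted p = 0.251), and of -0.35 (SE 0.049) without replicate 4.

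**Figure D2:**
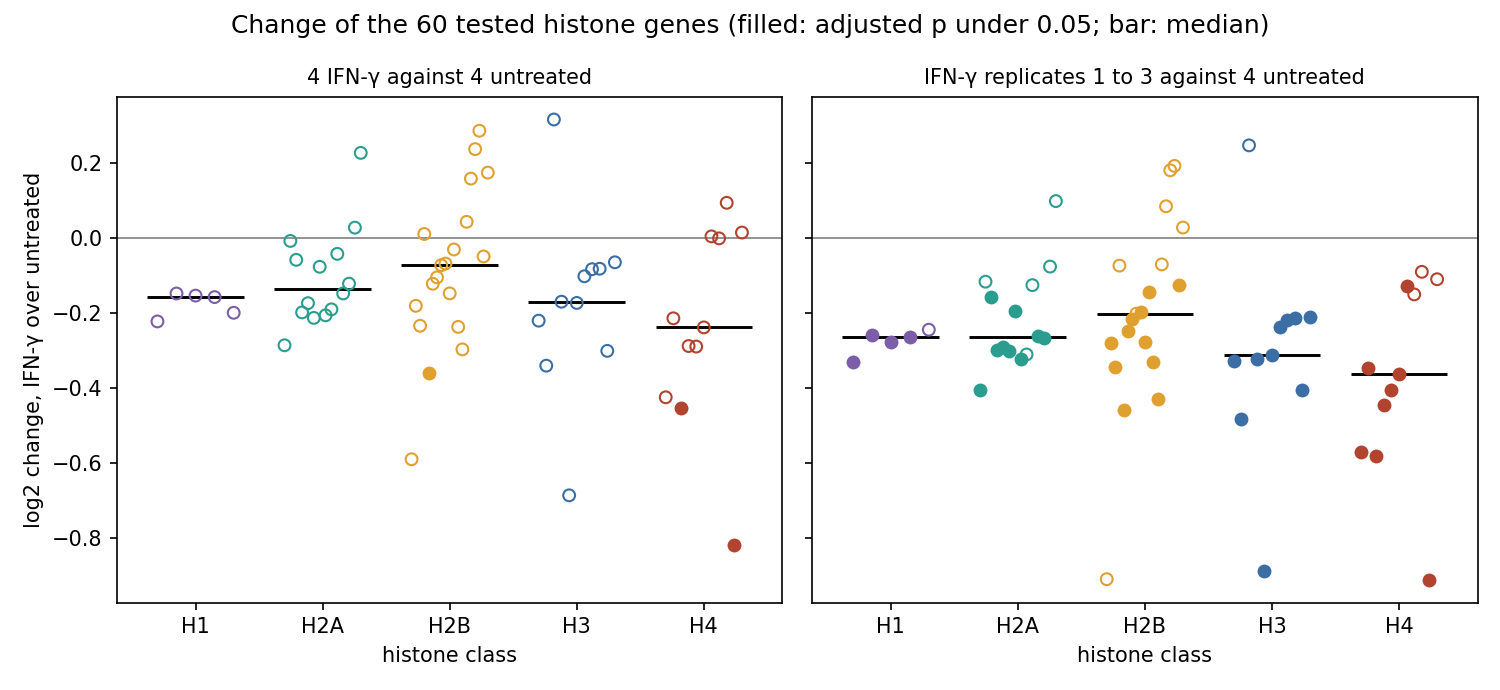
Log2 change of FPKM, IFN-γ over untreated (y axis), of the 60 tested histone genes by class (x axis), with all 8 libraries on the left and without IFN-γ replicate 4 on the right. Filled points passed an adjusted p under 0.05 in limma, and bars are class medians. 3 points are filled on the left and 42 on the right, all below 0, a direction that turned in TPM with SNORD3A in the total.

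**Figure D3:**
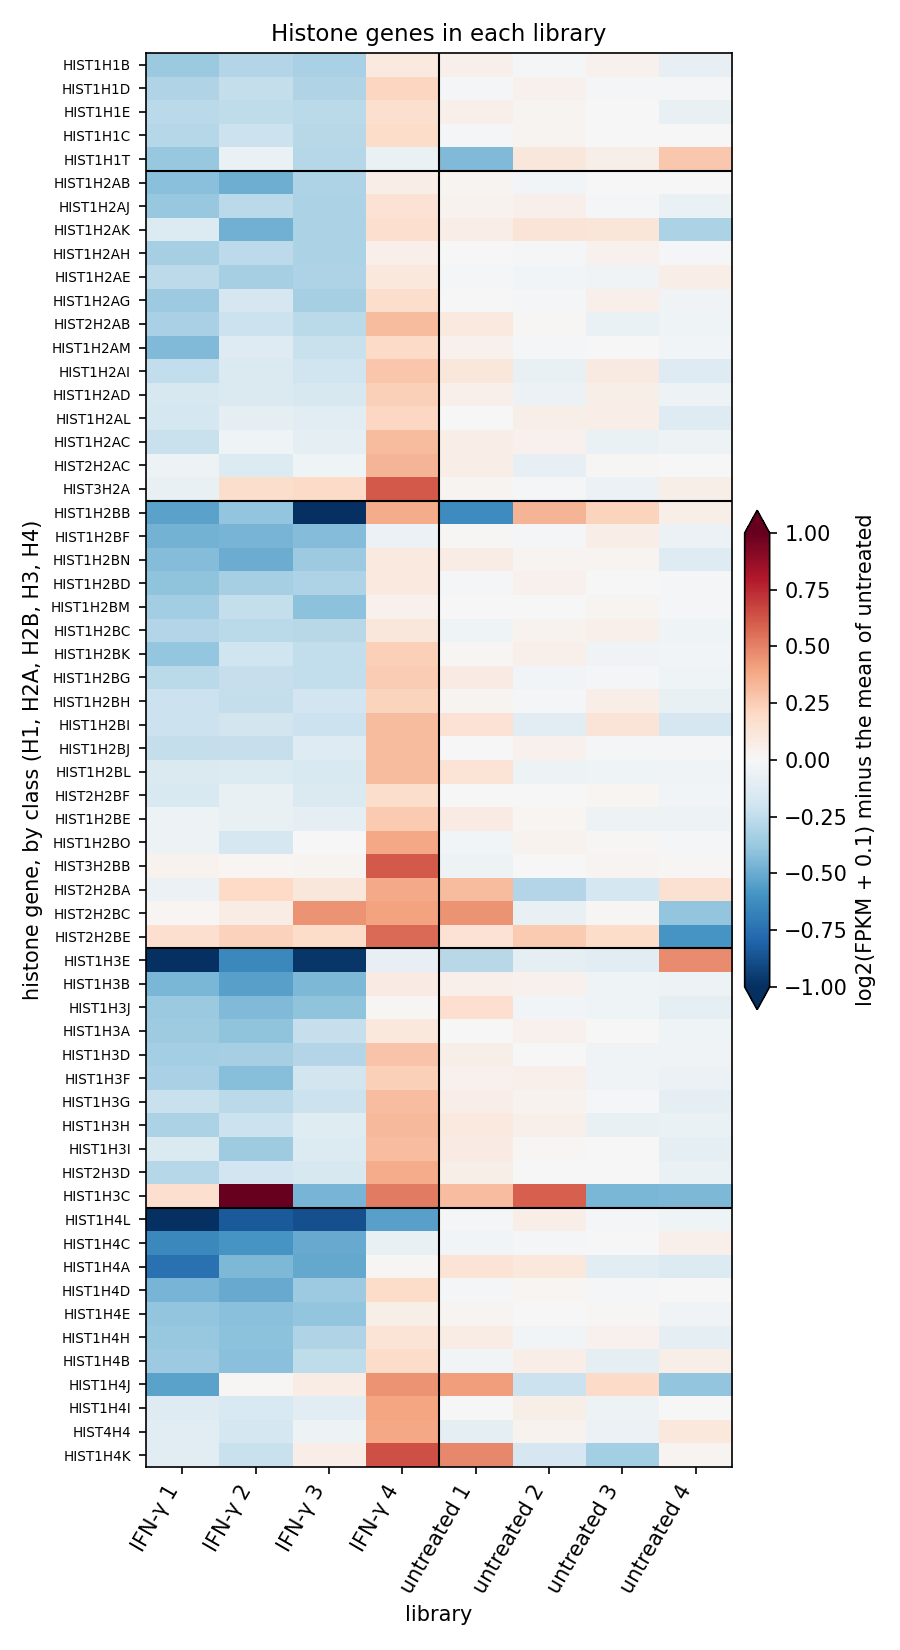
Each row is a tested histone gene, ordered by class, and each column a library, with the 4 IFN-γ libraries left of the 4 untreated ones. Color is log2(FPKM + 0.1) minus the mean of the untreated libraries, from -1 (blue) to 1 (red). The columns of IFN-γ replicates 1 to 3 are mostly blue, with medians over the 60 genes of -0.29, -0.23 and -0.25, that of replicate 4 is mostly red with 0.22, and HIST1H4L is blue in all 4.

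The share of each class in the family sum was taken per library. H4 made up 22.1% ± 0.617 of the family sum with IFN-γ and 23.8% ± 0.437 untreated (SD, n = 4 each). Its share was 21.9, 21.3, 22.4 and 22.7% in the IFN-γ libraries and 23.5, 24.0, 23.4 and 24.3% in the untreated libraries, without overlap. The H2B share was 32.3% ± 0.462 with IFN-γ and 31.1% ± 0.285 untreated, and the H2A share 22.7% ± 0.482 and 21.9% ± 0.289, each higher in all 4 IFN-γ libraries. H1 and H3 shares overlapped between groups. Shares cancel what all members of a library have in common, and by share replicate 4 lay on the side of the other IFN-γ libraries in H2A, H2B and H4. They are given without a test.

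Members were then set against their own family by scaling each library to its median histone gene, a choice made after the values were seen. On that scale the median of all genes moved by 0.14, and 14.1% of all genes were higher and 1.08% lower. 6 members were lower than the family, which were HIST1H4L, HIST1H4C, HIST1H4A, HIST1H2BF, HIST1H3B and HIST1H4E, at log2 changes from -0.67 to -0.14. 4 of them encode H4, as do 11 of the 60 tested members, and all lie in HIST1, as do 50 of the 60. A scale set to the family's own median places members on both sides of 0. 6 members were higher than the family, which were HIST2H2BE, HIST3H2A, HIST3H2BB, HIST1H2BO, HIST2H2AC and HIST1H4I, at 0.15 to 0.44. Without IFN-γ replicate 4 the counts were 12 lower and 15 higher, against 2.17% of all genes lower and 63.5% higher. The genes named only here were chosen after their values were seen. HIST3H2BB had 364, 360.0, 362 and 543 FPKM with IFN-γ and 343, 356, 362 and 359 FPKM untreated, so that replicates 1 to 3 lay within or just above the untreated range. HIST3H2A had 182, 216, 219 and 293 FPKM with IFN-γ and 195, 189, 184 and 199.6 FPKM untreated. HIST2H2BE had 143, 149, 144 and 188 FPKM with IFN-γ and 141, 153, 144 and 84.2 FPKM untreated, and the low untreated replicate 4 bears on its change.

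**Figure D4:**
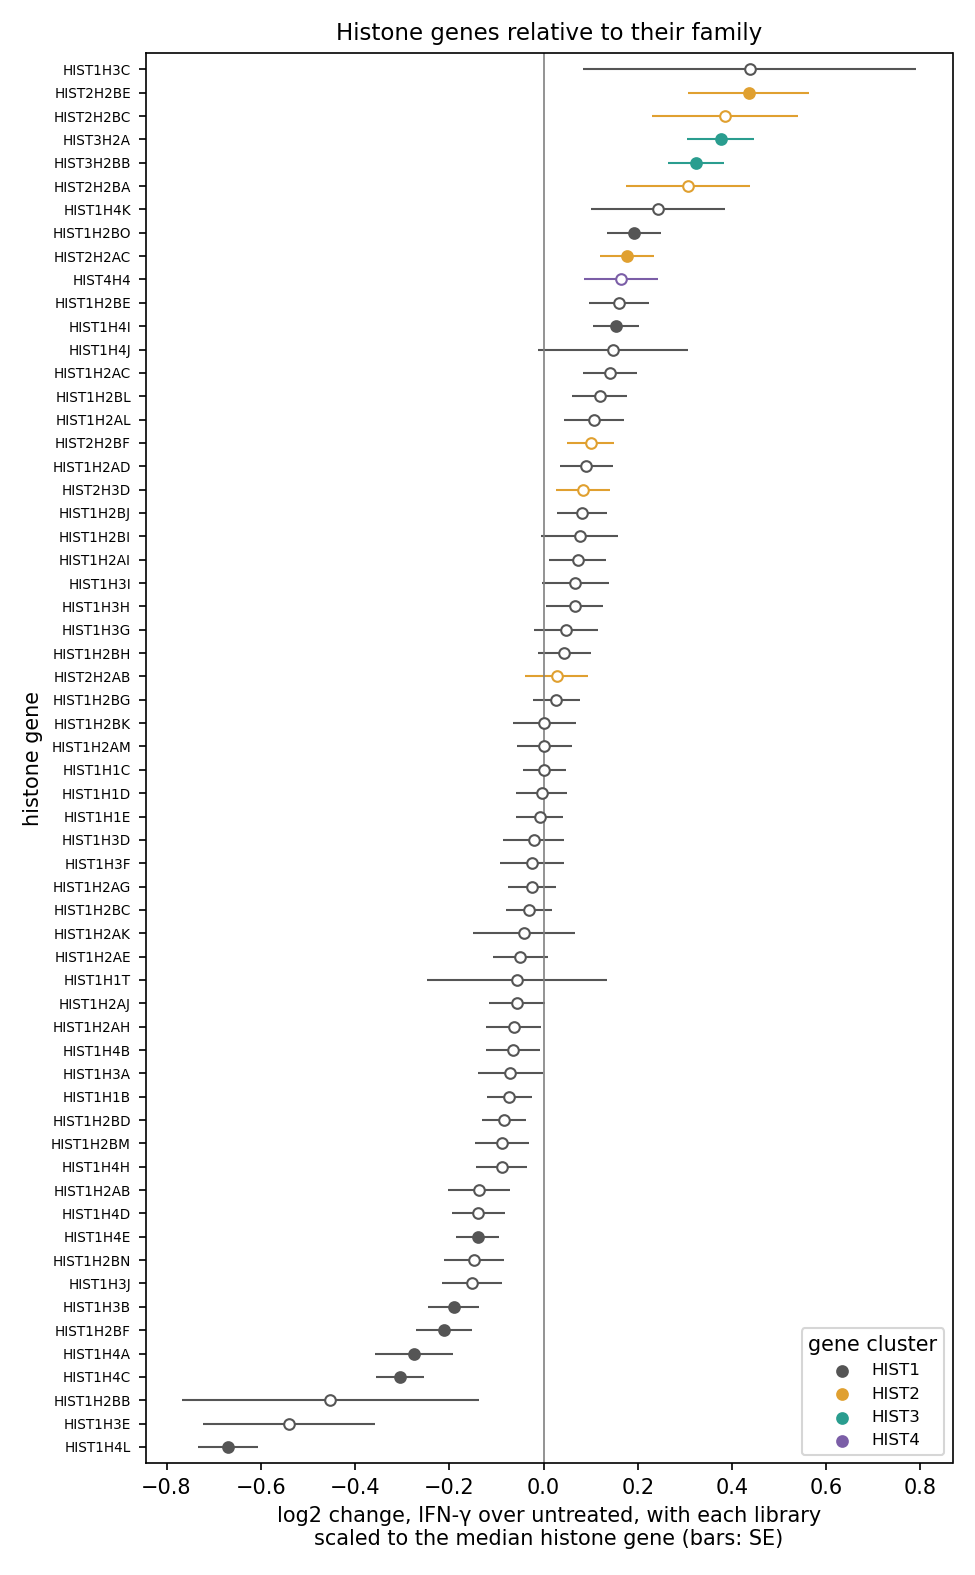
Log2 change, IFN-γ over untreated, of each tested histone gene after every library was scaled to its median histone gene (x axis), sorted down the page. Bars are SE, filled points passed an adjusted p under 0.05 in limma, and colors mark the HIST1 to HIST4 clusters. HIST1H4L lies lowest at -0.67, and HIST3H2A and HIST3H2BB lie at 0.38 and 0.32.

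Members were also read by the cluster they lie in. Without IFN-γ replicate 4, 39 of 50 tested HIST1 members were lower, with a median log2 change of -0.28, against 3 of 10 outside HIST1, with a median of -0.02. These 10 include the pseudogenes HIST2H2BA and HIST2H2BC. HIST2 had 3 of 7 lower, HIST3 none of 2, and HIST4H4 was not lower at a log2 change of -0.11. The HIST1 sum was 16832, 17206, 17470 and 23788 FPKM with IFN-γ, against 21599, 21413, 21228 and 20753 FPKM untreated. The HIST3 sum was 547, 576, 581 and 837 FPKM with IFN-γ, against 538, 546, 546 and 558 FPKM untreated. The HIST2 sum was 2167, 2244, 2217 and 2904 FPKM with IFN-γ, against 2471, 2388, 2421 and 2307 FPKM untreated. In IFN-γ replicates 1 to 3 the HIST1 and HIST2 sums were below the untreated range and the HIST3 sum was not. 11 pairs of an H2A and an H2B gene are transcribed away from each other from starts 219 to 331 nt apart. Of the 10 pairs with both members tested, both were lower without replicate 4 in 6, 1 was lower in 2 and none in 2. Partners could differ, as HIST1H2BF had a log2 change of -0.36 and its neighbor HIST1H2AD of -0.06 with all libraries, or -0.46 and -0.16 without replicate 4. The difference between clusters or partners was not tested.

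IFN-γ replicate 4 was the highest of the 4 IFN-γ libraries in 55 of the 56 members with a mean over 10 FPKM and the highest of all 8 in 50. It stood at 1.16 to 1.66 times the mean of IFN-γ replicates 1 to 3, with a median of 1.38. All 60 tested members were above those libraries on the log2 scale, by a median of 0.47. The tested histone genes are mostly short by RefSeq, with a median span of 493.5 nt. The other genes below are binned by another measure, the longest GENCODE transcript. By that measure 21 of the 71 members exceed 1000 nt. Among other genes the same log2 difference had a median of 0.66 for 33 genes with transcripts up to 300 nt, 0.07 for 56 genes up to 500 nt and 0.24 for 434 genes up to 1000 nt. It was 0.21 for 1831 genes up to 2000 nt, 0.09 for 2627 up to 3000 nt, -0.003 for 3990 up to 5000 nt and -0.11 for 3711 over 5000 nt. The share of genes above replicates 1 to 3 ran from 25.7% in the bin over 5000 nt to 76.5% in that from 1000 to 2000 nt. RNAs without a poly(A) tail moved the same way, and their genes were chosen after their values were seen. 11 of the 33 listed were over 100 FPKM in every library, and in all 11 replicate 4 was the highest of the 8. RN7SK, a small nuclear RNA that holds the elongation factor P-TEFb, had 98135, 103612, 100854 and 141939 FPKM with IFN-γ and 102446, 103973, 104909 and 100435 FPKM untreated. RN7SK in IFN-γ replicates 1 to 3 overlapped the untreated libraries, while the summed histones of those replicates lay below them. Other RNAs of the 11 went either way. The mean of IFN-γ replicates 1 to 3 was 40393 FPKM for RMRP, against 44637 FPKM untreated, and 594 FPKM for TERC, against 550 FPKM untreated. Whether transcript length or the lack of a tail has a part in the histone values of replicate 4 was not tested.

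**Figure D5:**
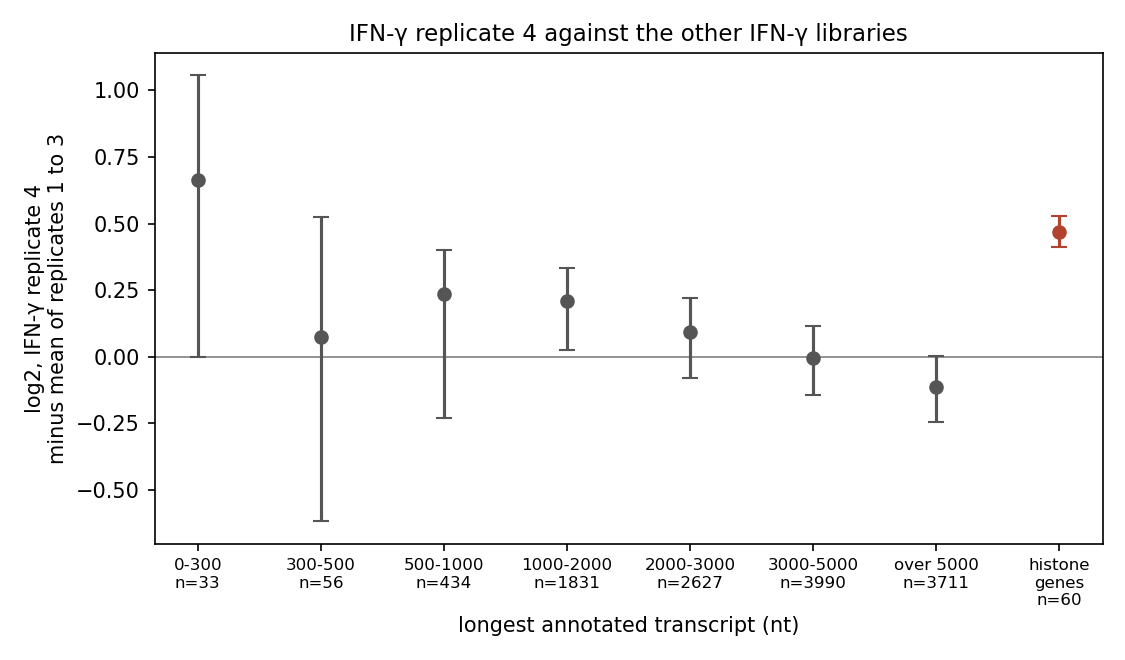
Log2 difference of IFN-γ replicate 4 from the mean of IFN-γ replicates 1 to 3 (y axis) for tested genes outside the family, binned by their longest annotated transcript (x axis, nt), and for the 60 tested histone genes (red). Points are medians and bars run from the lower to the upper quartile. The histone median of 0.47 lies above the medians of all bins from 300 nt upward, and the bin up to 300 nt has 0.66.

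Genes that work with the histone genes were read from the same comparison, by lists drawn up for this purpose. The S-phase and replication genes were lower in 15 of 50 and higher in none, with a median log2 change of -0.11, against the 9.05% of all genes that were lower. Without IFN-γ replicate 4, 20 of 50 were lower, against 12.5% of all genes. RFC3, a subunit of the clamp loader, had 54.4, 55.0, 57.1 and 63.7 FPKM with IFN-γ and 75.9, 82.6, 77.5 and 76.4 FPKM untreated, a log2 change of -0.44 (SE 0.05, limma adjusted p = 2.2e-04). GINS4, part of the replicative helicase, had 7.27, 7.26, 7.54 and 5.45 FPKM with IFN-γ and 9.93, 9.41, 8.61 and 8.84 FPKM untreated, a log2 change of -0.42 (SE 0.10, limma adjusted p = 0.0133). In both genes all IFN-γ libraries lay below all untreated ones. CCNE2, the cyclin E2 gene that acts at entry into S phase, had 6.87, 6.32, 6.78 and 6.61 FPKM with IFN-γ and 8.79, 8.73, 9.35 and 8.49 FPKM untreated, a log2 change of -0.41 (SE 0.05, limma adjusted p = 3.4e-04). In all 3 genes, the largest called changes of the list, replicate 4 lay below the untreated range, and all 3 directions turned in TPM with SNORD3A in the total. Summed over the 50 genes, replicate 4 had 1546 FPKM, the highest of the IFN-γ libraries and within the untreated range of 1537 to 1589 FPKM. In the histone sums replicate 4 lay above the untreated libraries.

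Of 27 tested genes of histone mRNA processing, 2 were higher and 2 lower, where 13.3% of all tested genes were higher and 9.05% lower. NPAT, the coactivator of histone gene transcription, had 11.9, 13.3, 11.8 and 11.9 FPKM with IFN-γ and 12.6, 13.1, 13.4 and 13.5 FPKM untreated, a log2 change of -0.10 (SE 0.05, limma adjusted p = 0.192). SLBP, the stem-loop binding protein, had 30.2, 32.1, 30.5 and 37.0 FPKM with IFN-γ and 31.3, 31.1, 32.2 and 29.3 FPKM untreated, a log2 change of 0.06 (SE 0.06, limma adjusted p = 0.536). NPAT and SLBP each overlapped between groups and did not pass the test. LSM11, a protein of the U7 particle, had 3.21, 3.37, 2.91 and 2.62 FPKM with IFN-γ and 3.57, 3.81, 3.82 and 4.08 FPKM untreated, and fell with a log2 change of -0.33 (SE 0.09, limma adjusted p = 0.0282). LSM11 did not pass without IFN-γ replicate 3 or without untreated replicate 2, 3 or 4 (limma adjusted p = 0.0679, 0.0675, 0.0658 and 0.0822). SNRPF, a Sm ring protein of U7 and of the spliceosome, had 145, 149.99, 151 and 166 FPKM with IFN-γ and 124, 123, 129 and 127 FPKM untreated, and rose with a log2 change of 0.28 (SE 0.05, limma adjusted p = 0.00151). Its groups did not overlap. CPSF3, the endonuclease that cuts the message, had 38.8, 37.8, 38.3 and 44.5 FPKM with IFN-γ and 32.4, 36.3, 35.3 and 34.9 FPKM untreated, a log2 change of 0.20 (SE 0.06, limma adjusted p = 0.0377). CPSF3 did not pass without IFN-γ replicate 1 or 3 or without any 1 of the 4 untreated libraries (limma adjusted p from 0.0513 to 0.107).

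Among 11 tested replacement histones, which are made outside S phase from messages with a tail, 1 was higher and none lower. The shares over all tested genes were 13.3% higher and 9.05% lower. H1F0, the linker histone H1.0 of cells that have stopped dividing, had 73.5, 76.6, 77.5 and 84.4 FPKM with IFN-γ and 56.4, 59.5, 55.1 and 62.3 FPKM untreated, a log2 change of 0.42 (SE 0.05, limma adjusted p = 2.8e-04). All 4 IFN-γ libraries lay above all untreated ones. H2AFZ, the H2A.Z gene, had 521, 535, 553 and 708 FPKM with IFN-γ and 514, 539.8, 562 and 548 FPKM untreated, and replicate 4 alone stood outside the untreated range. Its log2 change was 0.09 (SE 0.09, limma adjusted p = 0.546). H2AFY, which encodes macroH2A1, had a log2 change of 0.02 (SE 0.04, limma adjusted p = 0.759). Of 25 histone chaperones, 1 was higher and 1 lower, beside the same shares of 13.3% and 9.05% over all tested genes. NASP, a chaperone of H3 and H4, had 129.6, 123, 119.5 and 116 FPKM with IFN-γ and 99.0, 95.4, 102 and 98.3 FPKM untreated, a log2 change of 0.31 (SE 0.04, limma adjusted p = 4.7e-04). NASP did not pass under quantile normalization (limma adjusted p = 0.0881) or in TPM without SNORD3A (limma adjusted p = 0.152). TONSL, which binds new H4 behind the fork, had 6.82, 6.87, 7.94 and 6.49 FPKM with IFN-γ and 9.15, 8.02, 8.24 and 9.01 FPKM untreated, a log2 change of -0.29 (SE 0.07, limma adjusted p = 0.0193). Its groups did not overlap, and it did not pass without IFN-γ replicate 1 or untreated replicate 1 or 4 (limma adjusted p = 0.0503, 0.0622 and 0.0602).

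Of the 33 short RNAs without a tail, 16 were tested, and the others were listed at 0 in all libraries. Of the 16, 1 was higher and 1 lower, where 13.3% of all tested genes were higher and 9.05% lower. SNORD3A, the U3 small nucleolar RNA, was listed at 0 in all 4 IFN-γ libraries and at 668784, 829316, 37842 and 741029 FPKM in the untreated libraries, so no fold is given. Its copy SNORD3C had 136, 62.2, 402 and 179 FPKM with IFN-γ and 17.1, 69.0, 29.1 and 84.6 FPKM untreated, a log2 change of 1.92 (SE 0.60, limma adjusted p = 0.0459), which did not pass without IFN-γ replicate 1, 3 or 4 or untreated replicate 1, 2 or 3 (limma adjusted p from 0.0522 to 0.122). Fragments of these near-identical copies can be divided between them, and their values are uncertain. Untreated replicate 3, with the lowest untreated SNORD3A value, had 24311 FPKM of histone RNA, within the 23748 to 24721 FPKM of the other untreated libraries. This is 1 library, and whether SNORD3A bears on the histone values was not tested.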

How the data were processed

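RNA was measured in 4 IFN-γ and 4 untreated libraries of M17 cells. FPKM values per gene symbol were computed and deposited by the authors. TopHat2, Cuffdiff and hg38 are named in the submitters' processing notes, and the sources used here do not give the annotation behind the symbols or any scaling between libraries. The growth protocol also speaks of SH-SY5Y cells, but every sample is labelled M17. The protocol names a kit that does not mark strand. Depth per library was estimated from the steps between low FPKM values and is approximate, with no interval.

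Genes were kept if they averaged 0.5 FPKM or more over the 8 libraries, which left 13598, and log2(FPKM + 0.1) was fitted in limma 3.58.1 (R 4.3.3) with a mean-variance trend, and p-values were adjusted by Benjamini-Hochberg over those genes with a threshold of 0.05. Fold changes on this scale understate the change of low genes. The fit was tested on simulated data. 3 members were also given an exact two-sided permutation test over the 8 libraries. Named genes were the members that passed with all 8 libraries, the most abundant pair of each class, the largest changes that passed and, for replacement histones, the highest levels in each related list, and NPAT and SLBP. Related lists were replacement histones, processing of histone mRNA, histone chaperones, S-phase and replication genes and short non-polyadenylated RNAs, and marker lists covered neuroblastoma, T and NK cells, macrophages, fibroblasts and endothelium. 1 further marker list and 1 further promoter motif are not reported here. The members and lists were chosen with earlier results of these data known. Alternatives changed the pseudocount, the filter, the scaling, the limma settings and the libraries used, or added a replicate block. Transcript lengths and stem-loops came from GENCODE release 29 (hg38), and gene spans and promoters from RefSeq on GRCh38.p14. All 71 members were matched to RefSeq by the Entrez gene identifier given in GENCODE or, failing that, by symbol or synonym. Python 3.11.15 with pandas 2.3.3, numpy 2.4.6 and scipy 1.17.1 made the summaries.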

Additional observations from a re-analysis of the deposited data

Results flagged for a closer look

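Within each group of 4 libraries, the gap from the highest or lowest library to its neighbor was divided by the range of the group, and ratios above Dixon's critical value at the 95% level for 4 are given here. Chance alone passes about 1 in 20 groups. 21 of the 82 groups looked at passed, and in 17 of these IFN-γ replicate 4 was the high library.

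For class sums with IFN-γ replicate 4 high, the ratio was 0.889 for H1, 0.83 for H2A, 0.942 for H2B, 0.854 for H3, 0.863 for H4 and 0.909 for all members. Untreated replicate 4 was the low library for the H1 sum (0.898) and the H2B sum (0.932). IFN-γ replicate 4 was also high for HIST1H1C (0.862), HIST1H1B (0.866), HIST1H2BC (0.961), HIST1H2BF (0.914), HIST1H3B (0.874), HIST2H2BE (0.865), HIST3H2BB (0.975), HIST1H4E (0.954) and HIST1H4I (0.924). Outside the family it was high for H2AFZ (0.831) and CPSF3 (0.86), and low for GINS4 (0.87). IFN-γ replicate 2 was high for NPAT (0.926). Results that rest on replicate 4 are given with and without it above, and what set it apart was not tested.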

How the results depend on the processing

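The counts of called genes moved with the libraries and the scaling, and the causes of these moves were not tested. The count of lower members was 3 as reported, and 2 to 42 with 1 library left out, where 42 was without IFN-γ replicate 4 and no library left out gave a higher member. With all libraries it was 40 under quantile normalization, 23 with the length trend removed and 36 in TPM without SNORD3A. TPM without genes under 200 nt, which keeps SNORD3A (annotated at 699 nt) in the total, gave 0 lower and 33 higher, with 9480 of all genes higher and 15 lower. Scaling to the histone median gave 6 higher and 6 lower. Without IFN-γ replicate 4 the counts of lower members were 42 with median-of-ratios scaling, 46 with quantile normalization, 38 with the length trend removed, 45 with the replicate block and 43 in TPM without SNORD3A. There TPM with SNORD3A gave 0 lower and 15 higher, with 10036 of all genes higher and 18 lower, and histone scaling 12 lower and 15 higher, with 8631 of all genes higher and 295 lower. Over all genes, 1809 were higher and 1230 lower as reported. Leaving out 1 library gave 1474 to 2165 higher and 854 to 1698 lower. Quantile normalization gave 2570 lower, or 3119 without replicate 4, TPM without SNORD3A 892 higher and histone scaling 147 lower. Deviations of same-numbered libraries from their group means had correlations from -0.027 to 0.079, and those of differently numbered libraries from -0.094 to 0.086. Correlations this weak cannot show whether the numbers pair the libraries. The replicate block gave 4 lower members.

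With 1 library left out the log2 ratios of the sums ran from -0.28 to -0.11 for H1, -0.22 to -0.04 for H2A, -0.21 to -0.05 for H2B, -0.33 to -0.11 for H3, -0.40 to -0.20 for H4 and -0.28 to -0.10 for all members. In TPM with SNORD3A they were 0.55, 0.61, 0.61, 0.54, 0.46 and 0.56, and without replicate 4 0.52, 0.58, 0.59, 0.49, 0.41 and 0.53. The same TPM turned HIST1H1C (0.66), HIST1H2AM (0.66), HIST1H3H (0.72), HIST2H2BF (0.76, and 0.77 without replicate 4), HIST1H2BF (0.45 and 0.43), HIST1H4C (0.35 and 0.31), LSM11 (0.45 and 0.60), TONSL (0.51 and 0.63), RFC3 (0.36 and 0.40), GINS4 (0.37 and 0.57), CCNE2 (0.39 and 0.48) and NPAT (0.70 and 0.80). Histone scaling without replicate 4 turned HIST2H2BF (0.14), TONSL (0.0093) and NPAT (0.17), and quantile normalization turned H2AFY (-0.13, and -0.12 without replicate 4). TPM without SNORD3A, histone scaling and scalings combined with the left-out replicate 4 were chosen after seeing the data. Depth limits members near the filter, such as HIST1H3C at a mean of 0.521 FPKM, for which a difference was not detectable.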
